A study of Homo sapiens with 10 samples.

Results

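The target program of the KMT2A fusion was examined in MV4-11 cells through 9 genes: HOXA3, HOXA5, HOXA6, HOXA7, HOXA9 and HOXA10 of the HOXA cluster, MEIS1, PBX3 and JMJD1C. They were chosen by symbol as known members of this program or, for JMJD1C, as a protein that cooperates with it, with earlier results of these data known. All 9 were found among the 19590 genes of the RNA-Seq table, and all 9 were among the 13110 genes tested, which are those averaging 10 or more normalized counts over the libraries. HOXA3, HOXA5, HOXA6, HOXA7, HOXA9 and HOXA10 lie on chromosome 7, MEIS1 on chromosome 2, PBX3 on chromosome 9 and JMJD1C on chromosome 10. MV4-11 is an established cell line from an acute myeloid leukemia (AML) of the M5 subtype and carries an internal tandem duplication of FLT3 beside the fusion of KMT2A with AFF1. The comparison is between 4 Control libraries, made from cells that received only the control vector, and 4 IRF8 KO libraries, made from cells in which IRF8 had been targeted with CRISPR/Cas9. FLT3 and KMT2A alterations are shared by both groups. According to the methods of the study, the knockout cells were lentivirally infected, puromycin-selected and cloned by limited dilution, with 3 clones from 2 guide RNAs. Which clone gave which library, and whether replicates of a group are separate cultures, is not stated in the sources used here, so that the p-values measure the spread between these libraries.

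KMT2A, also called MLL, is a histone methyltransferase that keeps HOX genes active during blood development. Its leukemic fusion proteins recruit elongation factors and DOT1L to a small set of genes, of which the late HOXA genes and MEIS1 are the best known. HOXA9 and HOXA10 are homeodomain transcription factors, MEIS1 and PBX3 are TALE homeodomain proteins that bind DNA together with them, and JMJD1C is a jumonji-domain protein that cooperates with this program in leukemia cells. High HOXA9 and MEIS1 maintain self-renewal in myeloid progenitors, whereas IRF8 drives monocytic and dendritic cell differentiation.

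Each library had at least 39560072 and at most 65519047 reads assigned to genes. IRF8, the targeted gene, had between 15192 and 43016 normalized counts in the Control and between 2401 and 12903 in the IRF8 KO libraries (log2 fold change -2.11 ± 0.51 (SE), limma adjusted p = 0.022). IRF8 mRNA was thus lower but present in each IRF8 KO library, and 5 of 24 alternative settings lost this call, among them the fits without Control replicate 1, Control replicate 3 or IRF8 KO replicate 1, with an adjusted p of up to 0.090. Counts per gene do not show the edit itself. The study reported that IRF8 protein was absent from its knockout clones by Western blot, and that ChIP-qPCR no longer found IRF8 at its target genes. Of the 8 markers of myeloid leukemia cells examined, all were expressed in both groups, and MPO, PTPRC and ITGAM rose in the IRF8 KO libraries. Of other cell types, the T cell markers summed to at most 12.4 normalized counts in a library and the erythroid markers to at most 6.77. Of the 4 epithelial markers, KRT8 and KRT18 fell, and the list summed to between 1473 and 3728 in the Control and between 60.7 and 242 in the IRF8 KO libraries, while EPCAM and CDH1 stayed at or below 1.88 in each library. The B cell list summed to between 193 and 512 in the Control and between 167 and 923 in the IRF8 KO libraries, with MS4A1 at 0 throughout, and the fibroblast list to at most 418. Their part in the results was not tested. Control replicates 1 and 3 resembled each other, as did Control replicates 2 and 4: their median absolute log2 differences were 0.075 and 0.15, against 0.40 to 0.46 for the other Control pairs. Among IRF8 KO libraries the smallest difference, 0.21, was that of replicates 2 and 4, and the others were between 0.28 and 0.42. What this split is was not given in the labels, and for the 9 genes and IRF8 within-split values are given where they change a call. IRF8 had a log2 fold change of -2.13 within replicates 1 and 3 (limma adjusted p = 0.025) and -2.09 within replicates 2 and 4 (adjusted p = 0.058). The median log2 fold change was -0.00094 over all tested genes, and 0.0086 on chromosome 7, 0.015 on chromosome 2, -0.0043 on chromosome 9 and 0.020 on chromosome 10. In bulk RNA, fewer cells of a type and less RNA per cell cannot be told apart.

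Promoter sequences were taken from RefSeq (GRCh38.p14), as windows of 300 bases from 250 before to 50 after an annotated start, and were available for 8 of the 9 genes, in 17 windows. HOXA5 had no entry. The windows of MEIS1 and HOXA6 are shown because these genes fell, the window of the third listed HOXA3 start because it held the only match of an IRF8-related motif among the 17 windows, and that of CYBB, a phagocyte gene known to respond to both IRF8 and HOXA10, for comparison. Capitals mark matches, on either strand, of 4 motifs: the ETS-IRF composite (GGAA, any 2 bases, GAAA), the interferon response core (GAAA, any 2 bases, GAAA), the HOX-PBX motif TGATTTAT and the MEIS motif TGACAG.
MEIS1 (chr2:66434875-66435174, plus strand): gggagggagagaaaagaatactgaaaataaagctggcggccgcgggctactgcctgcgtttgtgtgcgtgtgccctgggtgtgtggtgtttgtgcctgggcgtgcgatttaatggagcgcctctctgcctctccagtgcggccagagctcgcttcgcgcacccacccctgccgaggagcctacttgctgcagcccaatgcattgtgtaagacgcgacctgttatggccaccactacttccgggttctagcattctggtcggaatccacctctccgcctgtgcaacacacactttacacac
HOXA6 (chr7:27147725-27148024, minus strand): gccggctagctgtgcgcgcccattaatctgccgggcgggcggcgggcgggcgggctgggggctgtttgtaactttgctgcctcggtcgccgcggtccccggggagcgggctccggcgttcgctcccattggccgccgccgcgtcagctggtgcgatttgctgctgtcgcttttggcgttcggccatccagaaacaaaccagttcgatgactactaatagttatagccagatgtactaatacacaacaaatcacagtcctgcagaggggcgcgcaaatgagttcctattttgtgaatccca
HOXA3 (chr7:27122978-27123277, minus strand): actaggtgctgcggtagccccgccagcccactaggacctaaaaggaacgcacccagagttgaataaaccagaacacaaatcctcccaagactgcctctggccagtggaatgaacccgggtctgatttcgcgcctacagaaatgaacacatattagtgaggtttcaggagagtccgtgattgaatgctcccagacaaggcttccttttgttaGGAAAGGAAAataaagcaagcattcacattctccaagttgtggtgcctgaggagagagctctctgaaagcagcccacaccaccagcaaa
CYBB (chrX:37779809-37780108, plus strand): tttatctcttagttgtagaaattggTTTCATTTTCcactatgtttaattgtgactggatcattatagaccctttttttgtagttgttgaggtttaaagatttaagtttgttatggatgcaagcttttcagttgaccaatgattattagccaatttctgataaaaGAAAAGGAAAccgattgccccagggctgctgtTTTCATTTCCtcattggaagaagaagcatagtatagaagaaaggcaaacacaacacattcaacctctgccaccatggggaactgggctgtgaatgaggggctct
Of all 35116 windows of this kind, 2.82% held the ETS-IRF composite, 3.57% the interferon response core, 0.846% the HOX-PBX motif and 15.8% the MEIS motif. In HOXA3 the composite began at position -39 relative to the start, read on the strand of the gene. The CYBB window held the composite on the opposite strand at -54 and the interferon response core at -225, also on the opposite strand, and at -86. The windows of MEIS1 and HOXA6 held no match of the 4 motifs, and the PBX3 window held a MEIS motif at -20. A match is a run of letters and not an occupied site, and the IRF8 ChIP-Seq samples were not analysed here.

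Of the 9 genes, MEIS1 and HOXA6 fell and none rose in the IRF8 KO libraries. By limma, 2 of 9 were lower and 0 higher at an adjusted p below 0.05, against 9.56% lower and 8.65% higher, or 18.2% in either direction, among all tested genes. At an unadjusted p below 0.05, 4 of the 9 genes were lower and 0 higher by limma, against 16% lower and 15.6% higher among all tested genes. EdgeR called 1 of the 9 lower and 0 higher, against 9.2% lower and 8.6% higher of all tested genes, and DESeq2 2 lower and 0 higher, against 13.1% and 12.8%. HOXA6 alone passed the study's own thresholds (p under 0.01 without adjustment and a difference of 2-fold or more). They were applied here to the limma values, whereas the study used DESeq2. Of all tested genes, 6.12% passed them as lower and 4.78% as higher, or 10.9% in all. In a fit with the replicate number as a block, 3 of 9 genes were lower, with HOXA3 as the third, against 14.6% lower and 28.7% called in all. With the split of replicates 1 and 3 from 2 and 4 as a covariate, the same 3 genes were lower, against 16.6% lower and 33.1% called in all. The Control and IRF8 KO values did not overlap in 2 of the 9 genes, against 25.3% of the tested genes. The median log2 fold change of the 9 genes was -0.50, with 7 below 0, against 6564 of the 13110 tested genes. Of the 9 genes, 6 lie in 1 cluster and are not independent of each other.

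**Figure D1:**
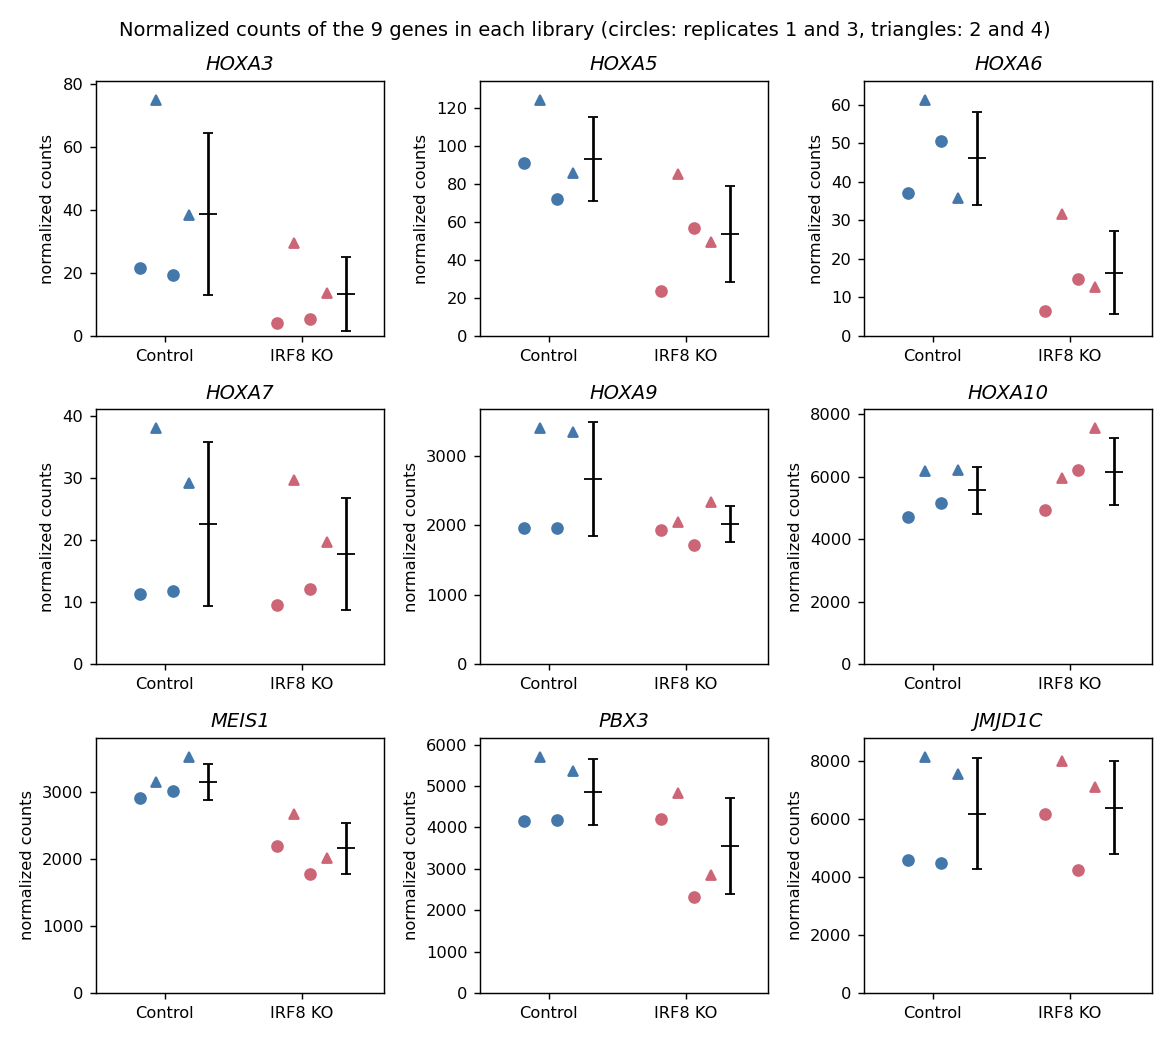
Normalized counts of the 9 genes (y axes, linear from 0) in the 4 Control (blue) and 4 IRF8 KO (red) libraries, with circles for replicates 1 and 3, triangles for 2 and 4, and black bars for the mean and SD of each group. The groups are apart for MEIS1 and HOXA6 and overlap for the other 7 genes, and in all 9 genes except HOXA5 and HOXA6 the 2 upper Control values are replicates 2 and 4.

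HOXA9, the homeodomain factor most closely tied to KMT2A-fusion leukemia, had 1959, 3394, 1957 and 3349 normalized counts in Control replicates 1 to 4. In IRF8 KO replicates 1 to 4 it had 1939, 2055, 1717 and 2340. The knockout values thus lay near the lower pair of Control values, and the groups overlapped. Control libraries averaged 2665 ± 817 and IRF8 KO libraries 2013 ± 259 (SD, n = 4 each). The log2 fold change was -0.36 (95% confidence interval -0.86 to 0.14, limma adjusted p = 0.31; exact permutation test, two-sided, p = 0.26). Among Control libraries HOXA9 was 1.72 times as high in replicates 2 and 4 as in replicates 1 and 3, and among IRF8 KO libraries 1.20 times. Within replicates 2 and 4 alone the log2 fold change was -0.62 (limma adjusted p = 0.026), and within replicates 1 and 3 alone -0.10 (adjusted p = 0.59). Whether these within-split values differ from each other was not tested. In the blocked fit the adjusted p was 0.096.

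HOXA10, its neighbor in the cluster and a repressor of phagocyte genes in progenitors, had 4728, 6179, 5159 and 6222 normalized counts in the Control libraries. The IRF8 KO libraries had 4939, 5963, 6210 and 7550. The IRF8 KO replicate 4 was the highest of all libraries, and the other 3 knockout values lay within the Control range. The log2 fold change was 0.14 (95% confidence interval -0.22 to 0.50, limma adjusted p = 0.61), so that a change beyond 1.5-fold in either direction lay outside the interval. The log2 ratio of HOXA10 to HOXA9 within a library, which no scaling factor touches, averaged 1.11 ± 0.27 in Control and 1.61 ± 0.22 in IRF8 KO libraries (SD, n = 4 each). The lowest knockout ratio of 1.35 was below the highest Control ratio of 1.40, while the knockout library had the higher ratio in 4 of 4 libraries of the same number.

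HOXA3, HOXA5, HOXA6 and HOXA7, earlier members of the cluster that also encode homeodomain factors, had between 4 and 144 reads in a library. HOXA6 had 37.0, 61.2, 50.5 and 35.8 normalized counts in the Control and 6.39, 31.5, 14.9 and 12.8 in the IRF8 KO libraries. All 4 knockout values were below the lowest Control value. HOXA6 had a log2 fold change of -1.60 ± 0.46 (SE; limma adjusted p = 0.041; exact permutation test, two-sided, p = 0.029, the smallest that 4 against 4 libraries allow). HOXA6 was called in no fit that left out one library, except the fit without IRF8 KO replicate 2, with adjusted p-values between 0.011 and 0.097. The call was also lost within replicates 1 and 3 alone (-2.03, adjusted p = 0.059) and within replicates 2 and 4 alone (-1.18, adjusted p = 0.20). The adjusted p was 0.062 with edgeR and 0.025 with DESeq2 on the recovered reads, in a range of 0.011 to 0.20 over 23 alternative settings.

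HOXA3 had 21.7, 75.0, 19.3 and 38.6 normalized counts in the Control and 4.26, 29.6, 5.42 and 13.8 in the IRF8 KO libraries. Each knockout library was below the Control library of its number, but the groups overlapped through replicate 2. The log2 fold change, -1.63 ± 0.65 (SE), did not pass (limma adjusted p = 0.12). Blocking on the replicate number brought its SE to 0.33 and its adjusted p to 0.010, past the threshold. Within replicates 1 and 3 alone the log2 fold change was -1.89 (adjusted p = 0.043), and within replicates 2 and 4 alone -1.37 (adjusted p = 0.14). Without IRF8 KO replicate 2 the call was also gained, at -2.11 (adjusted p = 0.043). Across the 23 alternatives its adjusted p ranged from 0.0092 to 0.39. The annotated span of HOXA3 contains those of HOXA4, HOXA5 and HOXA6 on the same strand, and how reads in shared exons were assigned is not known, so the values of these genes, HOXA6 included, are uncertain. Antisense genes also lie in the cluster, and the strand setting of the counting is not known, so reads of a HOXA gene and of an antisense partner cannot be told apart.

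HOXA5 had 90.9, 124, 72.0 and 85.7 normalized counts in the Control and 23.4, 85.1, 56.9 and 49.2 in the IRF8 KO libraries. Only IRF8 KO replicate 2 reached into the Control range. Its log2 fold change of -0.89 (standard error 0.39) did not pass (limma adjusted p = 0.15), and did not pass in any of 23 alternatives, the lowest adjusted p being 0.067. HOXA7 had 11.3, 38.0, 11.8 and 29.2 in the Control and 9.59, 29.6, 12.2 and 19.7 in the IRF8 KO libraries. In both groups HOXA7 was higher in replicates 2 and 4, by 2.91 times in the Control and 2.26 times in the knockout, and the groups covered nearly the same range. Its log2 fold change was -0.27 (95% confidence interval -1.44 to 0.91, limma adjusted p = 0.79), an interval that holds a 2-fold fall but not a 2-fold rise.

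**Figure D2:**
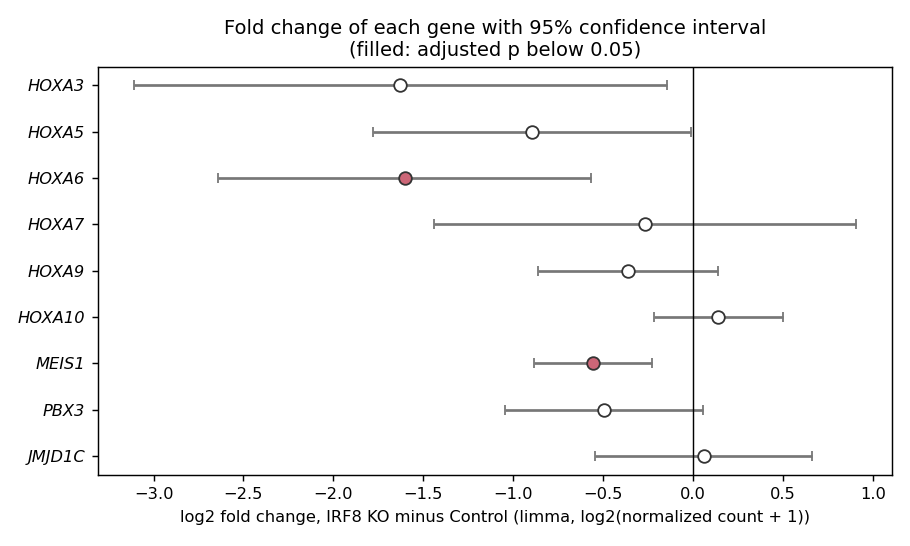
Log2 fold change, IRF8 KO minus Control (x axis), of the 9 genes (rows) with 95% confidence intervals from limma on log2(normalized count + 1). MEIS1 at -0.56 and HOXA6 at -1.60 (filled) passed an adjusted p of 0.05, and the intervals of HOXA7, HOXA9, HOXA10, PBX3 and JMJD1C hold 0.

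HOXA13 moved in the direction opposite to HOXA6. HOXA13, the last gene of the cluster, averaged 43.8 ± 7.40 normalized counts in Control and rose to 165 ± 13.5 in IRF8 KO libraries (SD, n = 4 each), or a log2 fold change of 1.90 ± 0.21 (SE; limma adjusted p = 5.1e-04). Its Control values reached at most 53.5, and its IRF8 KO values were at least 147. HOXA4 and HOXA11 did not pass. HOXA11, beside HOXA10, had a log2 fold change of 0.0028 (95% confidence interval -0.30 to 0.30). HOXA2 was below the filter, with at most 12.9 normalized counts. HOXA13 kept its call in each of the 24 alternatives, with log2 fold changes between 1.81 and 2.02.

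**Figure D3:**
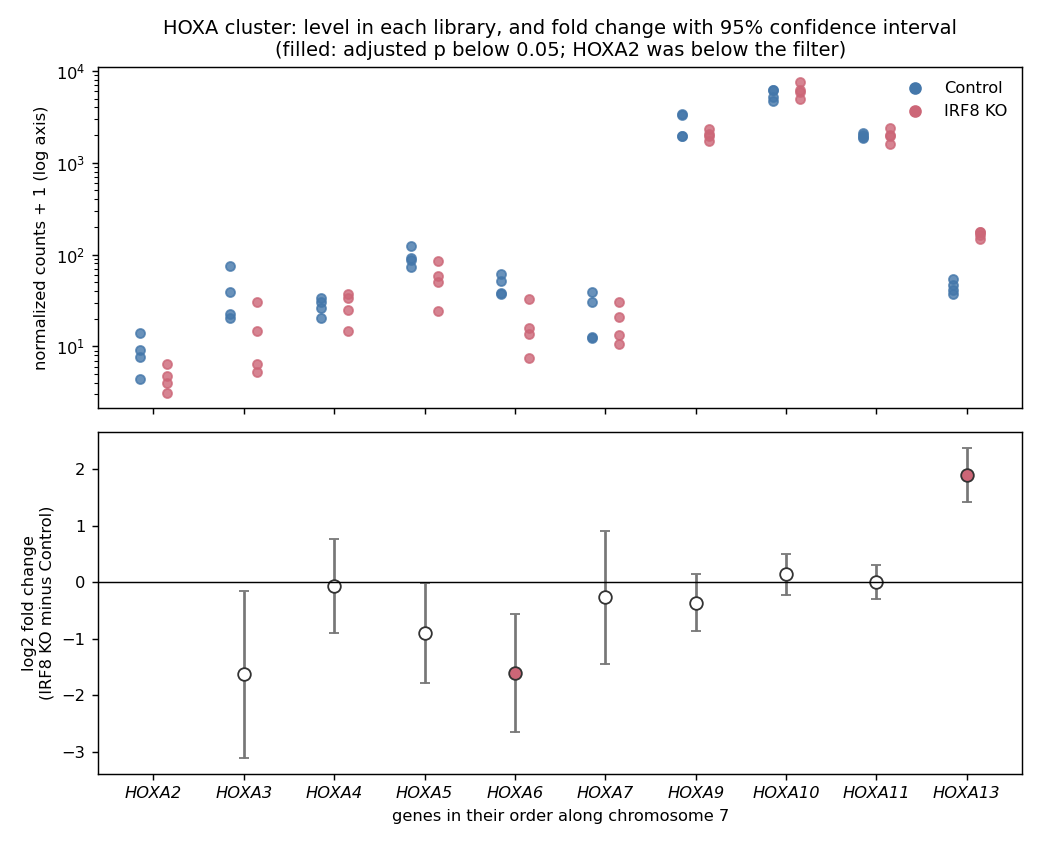
HOXA genes in their order on chromosome 7, with normalized counts + 1 of each Control (blue) and IRF8 KO (red) library on a log axis above and the log2 fold change with its 95% confidence interval below. HOXA6 fell and HOXA13 rose (both filled, adjusted p below 0.05), and the intervals of HOXA7, HOXA9, HOXA10 and HOXA11 between them hold 0. Levels of different genes are not scaled for transcript length.

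MEIS1, the cofactor that speeds HOXA9-driven leukemia, had 2904, 3141, 3007 and 3519 normalized counts in Control replicates 1 to 4. The IRF8 KO replicates had 2187, 2663, 1770 and 2007. All 4 knockout values were below all Control values, and the mean fell from 3143 ± 269 to 2157 ± 378 (SD, n = 4 each), or to 68.6% of the Control. MEIS1 had a log2 fold change of -0.56 ± 0.14 (SE; limma adjusted p = 0.029; exact permutation test, two-sided, p = 0.029), and edgeR and DESeq2 also called it (adjusted p of 0.034 and 0.0047). Leaving out any library other than IRF8 KO replicate 2 took the call away, with an adjusted p of at most 0.079, and over the 24 alternatives the adjusted p ranged from 0.0047 to 0.18. MEIS1 was not called within replicates 1 and 3 alone (-0.59, adjusted p = 0.057) or within replicates 2 and 4 alone (-0.52, adjusted p = 0.089). The difference was smaller with IRF8 KO replicates 1 and 2 alone (-0.38, adjusted p = 0.18) than with replicates 3 and 4 alone (-0.73, adjusted p = 0.019), and whether these values differ was not tested. IRF8 itself had a log2 fold change of -2.79 with IRF8 KO replicates 1 and 2 alone (limma adjusted p = 0.031). With replicates 3 and 4 alone that of IRF8 was -1.43 (limma adjusted p = 0.090).

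PBX3, a TALE protein that joins HOXA9 and MEIS1 on DNA, had 4146, 5703, 4187 and 5366 normalized counts in the Control and 4202, 4839, 2318 and 2838 in the IRF8 KO libraries. Knockout replicates 1 and 2 lay inside the Control range, and replicates 3 and 4 lay below it. The log2 fold change was -0.50 (95% confidence interval -1.05 to 0.053, limma adjusted p = 0.20; exact permutation test, two-sided, p = 0.17). With IRF8 KO replicates 3 and 4 alone it was -0.90 (limma adjusted p = 0.028), and with replicates 1 and 2 alone -0.090 (adjusted p = 0.84). The adjusted p ranged from 0.028 to 0.84 over 24 alternatives, and the difference between the knockout replicates was not tested.

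Other TALE cofactors changed in both directions. Of 8 tested genes of this list, 3 fell and 1 rose, against 9.56% and 8.65% of all tested genes, with a median log2 fold change of -0.016. MEIS2, a paralog of MEIS1, rose to 180% of the Control mean (log2 fold change 0.85, limma adjusted p = 7.8e-04), so that MEIS1 and MEIS2 moved in opposite directions. PBX2, a paralog of PBX3, fell to 67.8% of the Control mean (log2 fold change -0.57, limma adjusted p = 0.016). PKNOX1, which like MEIS1 dimerizes with PBX proteins, had a log2 fold change of -0.41 (limma adjusted p = 0.049), a call lost in 13 of 24 alternatives, where the adjusted p reached 0.21. TGIF2, a TALE repressor, fell by 1.03 on the log2 scale (limma adjusted p = 5.1e-04). TGIF2 lies on chromosome 20, where 351 genes were tested and their log2 fold changes had a median of -0.92.

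JMJD1C had 4591, 8140, 4470 and 7541 normalized counts in the Control and 6184, 8011, 4244 and 7095 in the IRF8 KO libraries. In both groups replicates 2 and 4 were the upper values, and the group means of 6185 ± 1927 and 6383 ± 1609 (SD, n = 4 each) differed by far less than the spread. Its log2 fold change was 0.061 (95% confidence interval -0.54 to 0.66, limma adjusted p = 0.91). Within the Control libraries JMJD1C and HOXA9 both followed the split of replicates described above. JMJD1C was 1.73 times and HOXA9 1.72 times as high in replicates 2 and 4 as in replicates 1 and 3. The log2 ratio of JMJD1C to HOXA9 in the Control stayed between 1.17 and 1.26. In the IRF8 KO libraries the ratio was between 1.30 and 1.96, above all Control ratios. Of the log2 ratios of the 8 other genes to HOXA9, the groups did not overlap in this one alone, and it was not tested. Of the JMJD1C paralogs, the H3K9 demethylases KDM3A and KDM3B, KDM3B had a log2 fold change of 0.067 (limma adjusted p = 0.69). KDM3A had a log2 fold change of -0.72 with a limma adjusted p of 0.084, which was 0.0093 with the replicate number as a block.

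**Figure D4:**
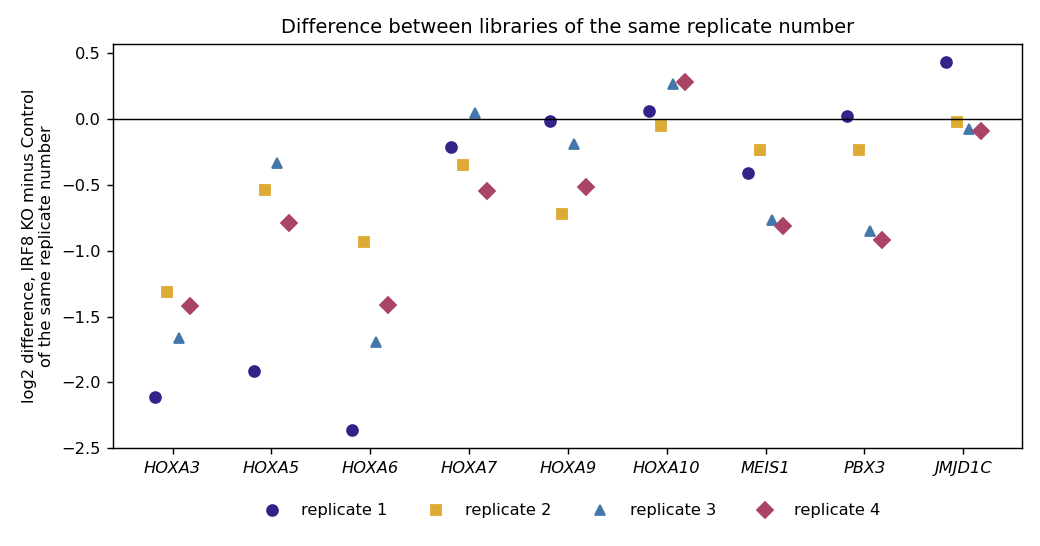
Log2 difference between the IRF8 KO and the Control library of the same replicate number (y axis) for the 9 genes (x axis), with 1 symbol for each replicate number. HOXA3, HOXA5, HOXA6, HOXA9 and MEIS1 are below 0 in 4 of 4 pairs. HOXA10 is below 0 in 1 pair, and HOXA7, PBX3 and JMJD1C are below 0 in 3. The share of all tested genes below 0 in 4 pairs was not computed, so these counts have no background.

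The genes of the fusion itself did not pass the test. KMT2A had 5403 ± 246 and 6015 ± 1542 normalized counts (SD, n = 4 each) in the Control and IRF8 KO libraries, a log2 fold change of 0.11 (limma adjusted p = 0.77). IRF8 KO replicates 1, 2 and 4 had 6960, 7036 and 6311, above the highest Control value of 5626. Replicate 3 had 3755, below the lowest of 5154. Without IRF8 KO replicate 3 the log2 fold change of KMT2A was 0.32 (limma adjusted p = 0.069). AFF1, its partner in MV4-11, had a log2 fold change of 0.15 (limma adjusted p = 0.62), and within replicates 2 and 4 alone 0.46 (adjusted p = 0.045). AFF1 too was below the lowest Control value of 6946 in IRF8 KO replicate 3, at 5983. Its other knockout values were above the highest Control value of 8362. Counts per gene do not separate fusion transcripts from those of the intact alleles. In the list of 28 genes of the KMT2A complex and the elongation machinery, 1 fell and 0 rose by limma, with a median log2 fold change of -0.11. That is 3.57% called, against 18.2% of all tested genes. With the replicate number as a block 2 fell and 1 rose, against 14.6% lower and 28.7% called in all of the tested genes. At an unadjusted p below 0.05, 8 were lower and 0 higher, against 16% and 15.6% of all tested genes, and by DESeq2 4 fell and 0 rose, against 13.1% and 12.8%. CDK9, the kinase of the elongation factor P-TEFb, fell to 65.8% of the Control mean (log2 fold change -0.61, limma adjusted p = 0.0095). The list of 13 Polycomb genes and H3K27 demethylases holds 11 genes of the complexes that oppose KMT2A at HOX genes, and KDM6A and KDM6B, which remove the Polycomb mark. In it JARID2, a Polycomb subunit, fell by 0.83 on the log2 scale (limma adjusted p = 0.0042) and 12 were not called. That is 7.69% called, against 18.2% of all tested genes. Of these 12, 1 rose with the replicate number as a block, a fit that called 28.7% of all tested genes.

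Of 18 tested genes known as other targets of KMT2A fusions, 6 were lower and 0 higher by limma, or 33.3% called against 18.2% of all tested genes (9.56% lower), with a median log2 fold change of -0.32. LAMP5, one of the 6 (log2 fold change -0.50, limma adjusted p = 0.0097), lies on chromosome 20, where the median was -0.92. At an unadjusted p below 0.05, 7 were lower and 1 higher, against 16% and 15.6% of all tested genes. EdgeR called 4 lower, against 9.2%, and DESeq2 6 lower, against 13.1%, with 0 higher in both. RUNX2, a RUNX transcription factor, had between 12316 and 29204 normalized counts in the Control and between 4851 and 9666 in the IRF8 KO libraries (log2 fold change -1.42, limma adjusted p = 0.024). BCL2, the apoptosis inhibitor, fell to 36.7% of the Control mean (log2 fold change -1.69, limma adjusted p = 0.032), with overlapping groups because IRF8 KO replicate 2 had 13067. IKZF2, a zinc finger factor of the Ikaros family, fell to 20.8% of the Control mean (log2 fold change -2.53, limma adjusted p = 0.036), and LGALS1, which encodes galectin-1, to 55.5% (log2 fold change -0.85, limma adjusted p = 0.0011). The calls of IKZF2, BCL2 and RUNX2 were lost in 10, 9 and 6 of 24 alternatives, with adjusted p-values of up to 0.14, 0.23 and 0.12, and edgeR lost those of IKZF2 and BCL2.

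Genes known to act downstream of HOXA9 and MEIS1 changed in both directions, with 3 of 12 tested genes lower and 1 higher, against 9.56% and 8.65% of all tested genes, and a median log2 fold change of 0.11. TRIB2, a pseudokinase gene induced by MEIS1, had 334 ± 44.8 (SD, n = 4) and 118 ± 55.8 (SD, n = 4) normalized counts and fell (log2 fold change -1.61, limma adjusted p = 0.012). SOX4 fell to 57.9% of the Control mean (log2 fold change -0.80, limma adjusted p = 0.0055). BCL2, named above, is also in this list. ERG, an ETS factor of stem cells, rose from at most 5.65 to at least 39.2 normalized counts (log2 fold change 3.53, limma adjusted p = 3.8e-04). Its Control mean of 4.97 was below the filter of 10. ERG, the 1 gene called higher in this list, was thus tested only through its IRF8 KO values.

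CYBB, a subunit of the phagocyte oxidase, is known to be activated by IRF8 with PU.1 and repressed by HOXA10. It rose in the IRF8 KO libraries. CYBB, whose promoter is printed above, had between 1198 and 2957 normalized counts in the Control and between 13822 and 19828 in the IRF8 KO libraries (log2 fold change 3.03 ± 0.28 (SE), limma adjusted p = 2.5e-04). Beside this rise, HOXA10 mRNA had the log2 fold change of 0.14 given above.

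Among the other HOX clusters, 11 of 28 genes passed the filter, of which 2 rose and 0 fell by limma, edgeR and DESeq2 (median log2 fold change 0.017), against 8.65% higher and 9.56% lower by limma of all tested genes. At an unadjusted p below 0.05, 2 were higher and 0 lower, against 15.6% and 16%. HOXC8 had between 1.07 and 10.5 normalized counts in the Control and between 34.1 and 148 in the IRF8 KO libraries (limma adjusted p = 0.0024). Its Control mean of 4.88 was below the filter of 10, so HOXC8 was tested only through its IRF8 KO values. HOXC6 rose from 120 ± 36.1 to 231 ± 14.4 (SD, n = 4 each; log2 fold change 0.98, limma adjusted p = 0.018). Of the 9 tested neighbors of the HOXA cluster on chromosome 7, 2 rose and 0 fell by limma, edgeR and DESeq2, or 22.2% called by limma against 18.2% of all tested genes. At an unadjusted p below 0.05, 3 were higher and 1 lower, against 15.6% and 16%. SNX10, a sorting nexin gene, rose from 150 ± 47.3 to 1309 ± 1051 (SD, n = 4 each; limma adjusted p = 0.0035), with IRF8 KO replicate 1 at 2873, and TAX1BP1, an autophagy receptor gene, had a log2 fold change of 0.65 (limma adjusted p = 0.023).

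**Figure D5:**
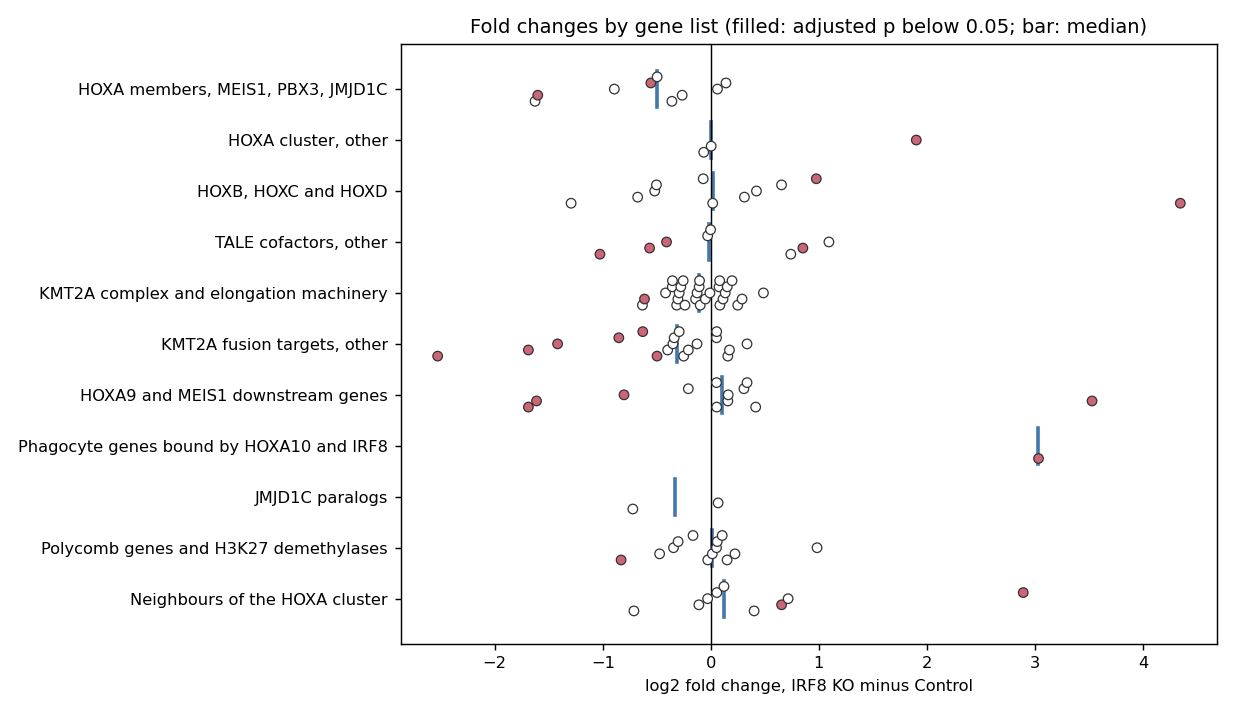
Log2 fold changes, IRF8 KO minus Control (x axis), of the tested genes of each list (rows), 1 point per gene, filled where the limma adjusted p was below 0.05, with a blue bar at the list's median. The 9 genes have a median of -0.50, other KMT2A fusion targets of -0.32 and the KMT2A complex and elongation list of -0.11. In that last list 18 of 28 genes are below 0 and 1 is called, against 18.2% of all tested genes called.

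The genes whose pattern over the 8 libraries was most like that of HOXA9 were SMURF2, TK2 and USP25. Likeness was measured as the root mean square difference of log2(normalized count + 1), each gene taken relative to its Control mean, and was 0.054, 0.063 and 0.068. In each of them, as in HOXA9, Control replicates 2 and 4 were the upper values, which follows from picking them by this likeness. The genes most like MEIS1 were ZNF619, STK36 and CRTC3, with differences of 0.072, 0.088 and 0.089. In these, as in MEIS1, IRF8 KO replicate 3 was the lowest library, which again follows from how they were picked.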

How the data were processed

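RNA-Seq of MV4-11 cells was analysed in 4 Control and 4 IRF8 KO libraries, prepared with a stranded mRNA kit. The authors used RNA-Star with GENCODE v32 for alignment and featureCounts for counting, and neither the build nor the strand setting was found in the sources used here. The deposited signal values are read counts per gene that the authors divided by 1 DESeq2 size factor per library. Columns named for wild type and a number were taken as the Control replicates of that number, and 0 columns were left out. The authors' table of their own comparison (mean, fold changes, standard errors, scores and p-values) and the IRF8 ChIP-Seq samples were not analysed here.

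Whole reads were recovered from the value of a single read in each library, and 100% of the values were whole within 0.01 reads. With a median of 52233344 reads per library, counting error is largest for genes near the filter. Genes with a mean of at least 10 were tested with limma 3.58.1 (R 4.3.3) after the transformation log2(normalized count + 1), with trended and robust prior variance and Benjamini-Hochberg adjustment over the 13110 genes. This scale understates the change of low genes. Single genes were also compared by exact two-sided permutation tests. Some genes of the lists are not reported here. Levels are not compared between genes, since transcript lengths were not used.

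The 9 genes, the gene lists and the alternatives were chosen with earlier results of these data known. Besides the 9 genes, the rule for naming takes IRF8, KMT2A, AFF1, the 4 largest changes among called genes of each list, every gene of a list with under 6 genes, and the 3 genes most like HOXA9 and MEIS1. HOXA4, HOXA11, HOXA2, KDM6A, KDM6B, LAMP5 and the marker genes are named outside it, after their values were seen. Alternatives were other pseudocounts, filters and scalings, limma without the trend or with library weights, the count tests of edgeR 4.0.16 and of DESeq2 1.42.0 run on whole reads, a replicate block, the split of replicates as a covariate, parts of the libraries, and leaving out each library. Libraries of the same number deviated together from the mean of their group (correlations over genes of 0.37, 0.48, 0.45 and 0.50), and the numbers were therefore treated as pairs in the blocked fit. Replicates 1 and 3, and 2 and 4, deviated together across groups to a like degree (0.40 to 0.47), so pairing by number cannot be told apart from this split.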

Additional observations from a re-analysis of the deposited data

Results flagged for a closer look

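Of 66 groups of 4 libraries tested with Dixon's criterion over the named genes, 3 had a library far from the other 3, where chance gives about 1 in 20. None was a group of the 9 genes. HOXC6 had 174 normalized counts in Control replicate 2 and between 99.8 and 106 in the other Control libraries. TRIB2 had 401 in Control replicate 4, against 306 to 318 in the others. SNX10 had 2873 in IRF8 KO replicate 1, against 602 to 895 in the other knockout libraries.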

How the results depend on the processing

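MEIS1 and HOXA6 were both called lower with the other pseudocounts, without a filter, with both other scalings, without the trend, with library weights and with DESeq2. The number of the 9 genes called lower was 2. It changed to 1, MEIS1, with a filter at a mean of at least 100 and with edgeR, to 1, HOXA3 or HOXA9, with replicates 1 and 3 or replicates 2 and 4 alone, and to 0 with IRF8 KO replicates 1 and 2 alone. Leaving out each library gave 0 to 3, with 3 only without IRF8 KO replicate 2 and 0 without any other. The replicate block, the split as covariate and IRF8 KO replicates 3 and 4 alone each gave 3. The number past the thresholds of the study was 1, and changed to 0 with the filter at 100, edgeR, replicates 2 and 4 alone and IRF8 KO replicates 1 and 2 alone, to 2 with the block and with the split as covariate, and to 0 to 2 on leaving out each library. HOXA6 is removed by the filter at 100, and the settings with part of the libraries hold fewer samples. For edgeR the cause was not tested. The block changed no other call of the 9 genes than that of HOXA3, and among the other named genes that of KDM3A.

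The direction of uncalled genes reversed in some settings. HOXA7 was at 0.040 with library weights and between -0.54 and 0.038 with a library left out. HOXA10 was at -0.028 with IRF8 KO replicates 1 and 2 alone. JMJD1C was at -0.056 with replicates 2 and 4 alone, at -0.12 with IRF8 KO replicates 3 and 4 alone and between -0.077 and 0.24 with a library left out. With replicates 1 and 3 alone KMT2A was at -0.14, AFF1 at -0.16 and KDM3B at -0.013, and with IRF8 KO replicates 3 and 4 alone KMT2A was at -0.15 and AFF1 at -0.044. Lower calls in the KMT2A complex list ranged from 0 to 7 and among other fusion targets from 2 to 8. Over all genes, 18.2% were called, against 28.7% with the block, 33.1% with the split as covariate and 9.24% with IRF8 KO replicates 1 and 2 alone.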

Other observations

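The genes HOXB6 and HOXB9, chosen after their values were seen, differed between libraries of a group. HOXB6 had 35.4, 63.0, 33.3 and 68.7 normalized counts in Control replicates 1 to 4 and 26.6, 36.3, 192 and 170 in the IRF8 KO replicates (log2 fold change 0.65, limma adjusted p = 0.57). HOXB9 had 0.80, 85.4, 0 and 40.5 in the Control and 2.13, 120, 2.71 and 13.8 in the IRF8 KO replicates, so that replicates 2 and 4 were above replicates 1 and 3 in both groups (limma adjusted p = 0.90 between the groups).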
